A study of Rattus norvegicus with 3 samples.

Results

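The Fto locus of the rat was examined here in livers of newborn male Wistar rats, as a window of 1 Mb on chromosome 19 (rn4, 16100000 to 17100000) around a listed region in an intron of Fto. The members are all regions of the 3 deposited lists that overlap this window, 62 of 95306 regions in all. Each list is called by its comparison, with the library that was higher named before the other. The window holds 28 of 35998 MLP vs. C regions, 20 of 33730 MLP vs. MLP-F regions and 14 of 25578 MLP-F vs. C regions. The members were selected on position around the intronic Fto region, which was itself chosen by the study on its false discovery rate (FDR) in MLP vs. C, so its presence in that list is a description and not a finding. The MLP group came from a dam on a diet of 9% casein and 1 mg/kg folate, the MLP-F group from a dam on 9% casein and 5 mg/kg folate, and the C group from a dam on 18% casein and 1 mg/kg folate. Livers were taken 1 day after birth, and DNA was pooled within a group into 1 library, from 6 animals by the sample labels and 8 by the methods of the study, all of 1 litter. Fragments bound by a methyl-CpG binding domain (MBD) were sequenced, so a listed region held more captured DNA in one library than in another, and the lists give no methylation level of single CpG sites. Each region has a score, which is the −log10 of its MACS p multiplied by 10. The lists begin at a score of 50, a p of 1e-05, and hold no FDR, so no FDR filter could be applied here. The study refers to the deposit as a larger collection at a looser FDR, which cannot be checked from the lists. Passing the p cut-off does not make the regions described here differentially methylated regions of the study.

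FTO is an iron- and 2-oxoglutarate-dependent dioxygenase of the AlkB family that removes methyl groups from adenosine in RNA. The 5-methylcytosine of DNA, which MBD capture reads, is a different modification. In human populations, common variants in an intron of FTO are associated with body mass index, and this intron is known to contact the distant homeobox genes IRX3 and IRX5. In the rat assembly GRCr8 the protein-coding genes follow each other in the order Irx6, Irx5, Irx3, Fto, Rpgrip1l, Aktip, Rbl2 and Chd9. Rpgrip1l encodes a protein of the ciliary transition zone, Rbl2 a pocket protein related to the retinoblastoma protein, and Chd9 a chromatin remodeller. No gene positions or sequence of rn4 were used here. Of the 62 regions, the study annotated 1 to a gene, the intronic Fto region. Only regions that the study had selected on FDR were annotated by it. The place of the other 61 relative to Fto was not determined.

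In the MLP vs. C list the Fto region spans 16602030 to 16602537 (508 bp) with a score of 125, place 7044 of 35998. In the MLP-F vs. C list a region from 16602019 to 16602397 (379 bp) lies at the same place with a score of 105, place 4221 of 25578. The regions share 368 bp, which is 72.4% of the MLP vs. C region and 97.1% of the MLP-F vs. C region. At the p cut-off the Fto intron was therefore listed above C in both libraries from dams on the low protein diet. The MLP-F vs. C region is not among the differentially methylated regions of the study, and the list does not give its FDR. No region of the MLP vs. MLP-F list overlaps it. The nearest one in that list, 12.9 kb below, spans 16589017 to 16589838 with a score of 51.5, close to the lowest score of 50. Absence from that list does not show that MLP and MLP-F livers had equal capture at the Fto intron. With 1 pooled library per group none of these differences has a replicate check, and differences between diets were not tested. Since each group was 1 litter, diet and litter cannot be told apart.

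**Figure D1:**
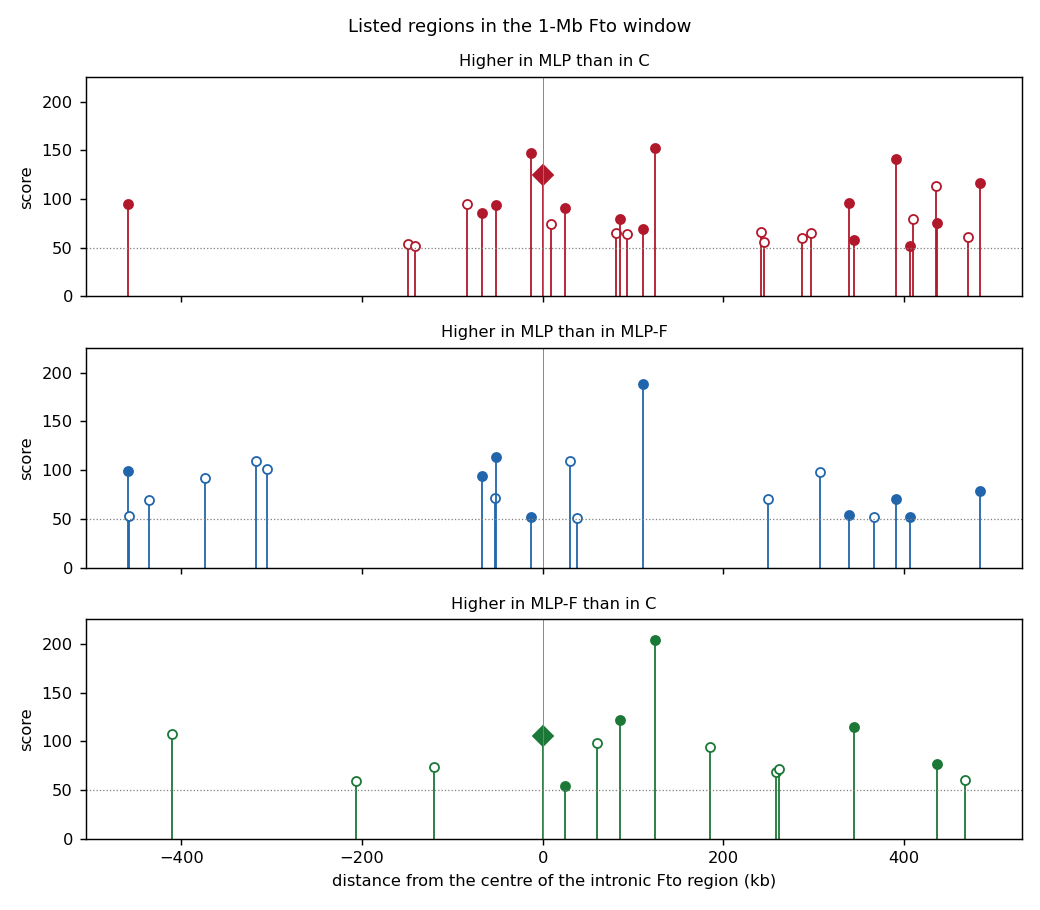
Score of each listed region (vertical axis, 10 times the −log10 of p) against its distance from the centre of the intronic Fto region in kb, for the 28 MLP vs. C, 20 MLP vs. MLP-F and 14 MLP-F vs. C regions of the window. Diamonds mark the Fto region (125 and 105), filled symbols are regions also in another list, open symbols are regions in 1 list only, and the dotted line is the lowest score of 50.

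Within 70 kb of the Fto region lie 6 MLP vs. C regions, 6 MLP vs. MLP-F regions and 3 MLP-F vs. C regions. The closest on the lower side, from 16589017 to 16589838 (822 bp), had MLP scores of 147 against C and 51.5 against MLP-F. It ranks above the Fto region in the MLP vs. C list, at place 4872, and it is not in the MLP-F vs. C list. At 12.9 kb from the Fto region it thus has the other combination of lists. On the upper side, 9.6 kb away, a region from 16611462 to 16612337 is in the MLP vs. C list alone, with a score of 74.8. A further one, 24.6 kb away (16626361 to 16627491, 1131 bp), scored 90.9 in MLP against C and shares sequence with a 442-bp MLP-F vs. C region scoring 53.9. It is the longest MLP vs. C region of the window, and it shows the same combination of lists as the Fto region. The region from 16631594 to 16633282, 30.2 kb away and with 1689 bp the longest of all 62, is in the MLP vs. MLP-F list alone, with a score of 109. Adjacent regions around the Fto intron thus differed in the lists that hold them.

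**Figure D2:**
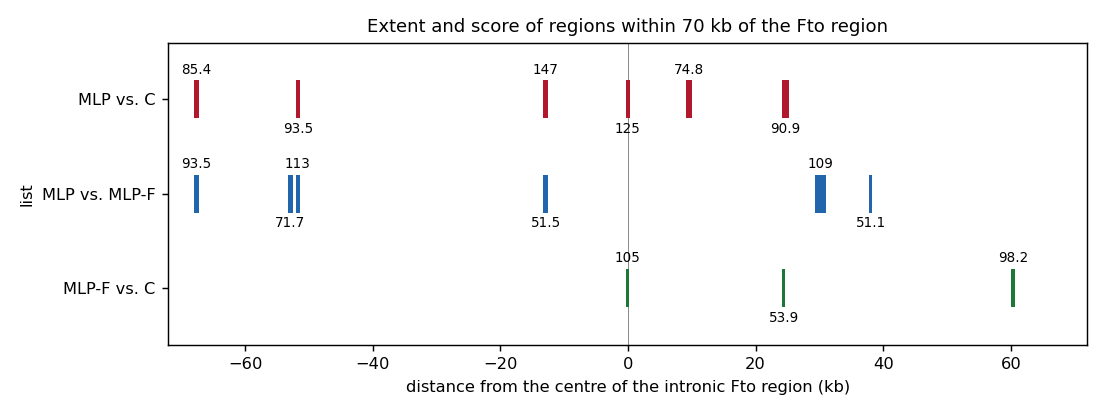
Extent of the listed regions within 70 kb of the Fto region, with distance from its centre in kb on the horizontal axis, 1 row per list and the score beside each region. The Fto region is in the MLP vs. C (125) and MLP-F vs. C (105) rows, and its neighbour 12.9 kb below is in the MLP vs. C (147) and MLP vs. MLP-F (51.5) rows.

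Among the 28 MLP vs. C regions of the window, 3 scored above the Fto region. They lie 124.5 kb above it (16726447 to 16727145, score 152), 12.9 kb below it (score 147) and 390.8 kb above it (16992881 to 16993300, score 141). The study annotated 0 of these 3 to a gene. It annotated only regions that it had selected on FDR, so this count does not show that no gene lies near them. The next scores after that of the Fto region were 117 (17085573 to 17086460), 113 (17037751 to 17038242) and 96.1 (16941162 to 16942017). The lowest was 51.8 (17007831 to 17008673). Scores of at least 100 were held by 6 of the 28 (21.4%, 95% Wilson interval 10.2 to 39.5%), beside 31.1% of the whole list. None of the 28 reached 200, beside 6.35% of the whole list. The median score was 77.2 in the window and 77.4 in the whole list.

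Of the 28 MLP vs. C regions, 9 (32.1%, interval 17.9 to 50.7%) are also in the MLP vs. MLP-F list, beside 39.4% of the whole list. From the other side they are 9 of the 20 MLP vs. MLP-F regions (45%, interval 25.8 to 65.8%), beside 42.1% of that list. All 9 have the same start and end in both lists, as do all 14194 shared regions of the whole lists. The MLP library is the first member of both comparisons, so the 2 lists are not independent. The highest of the 9 against MLP-F is the region from 16713400 to 16713811 (412 bp), 111.3 kb above the Fto region. Its score was 188 against MLP-F, the highest of the window in that list, and 69.4 against C. The region from 16550227 to 16550901, 51.7 kb below the Fto region, scored 113 against MLP-F and 93.5 against C. That from 16534299 to 16535069 scored 93.5 against MLP-F and 85.4 against C, and that from 16143271 to 16143583 scored 99.5 and 95.1. The score was higher against MLP-F than against C in 5 of the 9 (55.6%), beside 48.8% of the 14194 shared regions. The other 4 are the regions 12.9 kb below (51.5 and 147), 339.3 kb above (53.8 and 96.1), 390.8 kb above (70.02 and 141) and 483.7 kb above (78.7 and 117). Scores of different lists also depend on the depth of their libraries. By the study's read numbers MLP was sequenced most deeply, MLP-F less and C least, and the part of depth in these scores was not tested.

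Of the 28 MLP vs. C regions, 6 (21.4%, interval 10.2 to 39.5%) overlap a member of the MLP-F vs. C list, beside 22.6% of the whole list. Counted from the other side, 6 of the 14 MLP-F vs. C regions (42.9%, interval 21.4 to 67.4%) overlap an MLP vs. C region, beside 31.8% of that list. Besides the Fto region and its neighbour 24.6 kb above, they lie on the same side at 85.1, 124.5, 344.5 and 436.5 kb. At 124.5 kb the MLP-F vs. C region (16726452 to 16727124, 673 bp) has a score of 204, place 564 of 25578, and the MLP vs. C region a score of 152. These are the highest scores of the window in their lists, and the extents differ by 5 bp at the start and 21 bp at the end. At 85.1 kb the scores were 122 in MLP-F against C and 79.9 in MLP against C. At 344.5 kb they were 115 in MLP-F against C and 57.5 in MLP against C, and at 436.5 kb 76.4 in MLP-F against C and 75.4 in MLP against C. In 4 of the 6 (66.7%) the MLP-F score was the higher of the pair, beside 40.8% of 8144 such regions of the whole MLP vs. C list, and at the Fto region and its neighbour 24.6 kb above the MLP score was. The C library is the second member of both comparisons, so these lists are not independent either.

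The remaining 8 of the 14 MLP-F vs. C regions are in no other list. They scored between 59.1 and 107, and the highest lies 410.1 kb below the Fto region (16191816 to 16192467). The 11 regions in the MLP vs. MLP-F list alone scored between 51.1 and 109. Of the 20 MLP vs. MLP-F regions, 0 overlap a member of the MLP-F vs. C list (95% Wilson upper bound 16.1%), beside 1.27% of the whole list. Counted from the MLP-F vs. C list the count is also 0, beside 1.67% of that list. The Fto locus thus held no region with MLP above MLP-F and MLP-F above C, both listed. Such regions are rare in the whole lists, so a count of 0 in so few regions does not set the window apart.

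Merging overlapping regions of the 3 lists gave 47 loci in the window, of which 15 (31.9%, interval 20.4 to 46.2%) are in more than 1 list, beside 30.1% of 72909 loci in the whole series. In the MLP vs. C list alone were 13 loci (27.7%, interval 16.9 to 41.8%), beside 19.3% of all loci. In the MLP vs. MLP-F list alone were 11 (23.4%, interval 13.6 to 37.2%), beside 26.8%, and in the MLP-F vs. C list alone 8 (17%, interval 8.89 to 30.1%), beside 23.9%. The combination of the Fto region, higher than C in both MLP and MLP-F and not listed between them, was shared by 6 loci (12.8%, interval 5.98 to 25.2%), beside 10.6% of all loci. The combination of its neighbour 12.9 kb below, higher in MLP than in both C and MLP-F, was shared by 9 (19.1%, interval 10.4 to 32.5%), beside 18.9%. Held by all 3 lists were 0 loci, beside 0.553% of all loci, and 0 were held by both lists that involve MLP-F but not by MLP vs. C, beside 0.0329%. Each background share lies within the interval of the window. The intervals cover counting error only, and neighbouring loci come from the same 3 libraries.

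**Figure D3:**
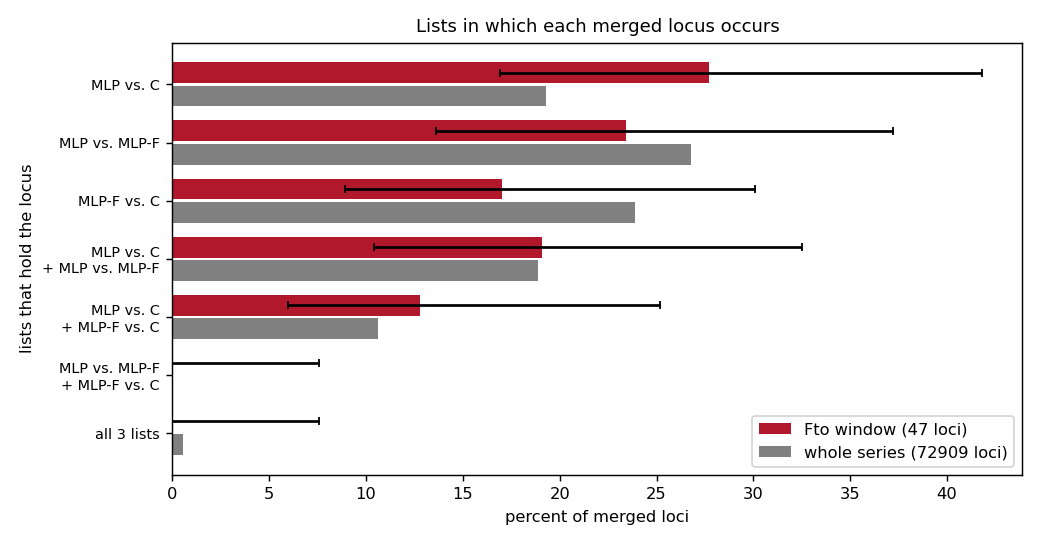
Percent of merged loci (horizontal axis) by the lists that hold them, for the 47 loci of the Fto window (red, with 95% Wilson intervals) and all 72909 loci of the series (grey). The combination of the Fto region, MLP vs. C with MLP-F vs. C, holds 12.8% of the window and 10.6% of all loci.

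Regions were not evenly placed along the window. Above the Fto region lie 20 MLP vs. C regions and below it 7. Of those 7, 6 are within 148.8 kb of it. Between 16143583 and 16453205, a stretch of 310 kb, no MLP vs. C region is listed, and 4.31% of the gaps between neighbouring regions in the whole list are at least as long. The same stretch holds 5 MLP vs. MLP-F regions, with scores of 53.1, 69.1, 92.0, 109 and 102, and 2 MLP-F vs. C regions, scoring 107 and 59.1. None of these 7 overlaps a region of another list. The stretch is the longest MLP vs. C gap of the window and was chosen after the positions were seen. Its share of 4.31% therefore does not show that it is unusual. In the MLP vs. MLP-F list 10 regions lie on each side of the Fto region, and in the MLP-F vs. C list 10 lie above and 3 below. The longest gaps in the window were 237 kb for MLP vs. MLP-F and 203 kb for MLP-F vs. C. At least as long were 7.79% and 13.6% of the gaps in those whole lists. The median gap between neighbouring regions was 14.5 kb in the window and 38.2 kb in the whole list for MLP vs. C, 31.6 and 41.9 kb for MLP vs. MLP-F, and 60.2 and 50.7 kb for MLP-F vs. C.

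With 28 regions per Mb in the MLP vs. C list, the Fto window held 2.17 times the 12.9 per Mb of all placed chromosomes and 1.51 times the 18.6 per Mb of chromosome 19. Among 59 bins of 1 Mb along chromosome 19, the MLP vs. C regions numbered between 3 and 37 with a median of 19, and 8 bins held more than the Fto window. Over 2705 such bins of all placed chromosomes, 6.1% held more. In the MLP vs. MLP-F list the window held 20 regions, 1.65 times the density of all placed chromosomes and 1.17 times that of chromosome 19, and more were held by 13.5% of all bins and by 19 of the bins of chromosome 19. In the MLP-F vs. C list it held 14, with densities 1.54 and 1.07 times those of the same backgrounds, and more were held by 21% of all bins and by 31 of the bins of chromosome 19. The window was chosen around an MLP vs. C region, and these numbers were not tested.

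**Figure D4:**
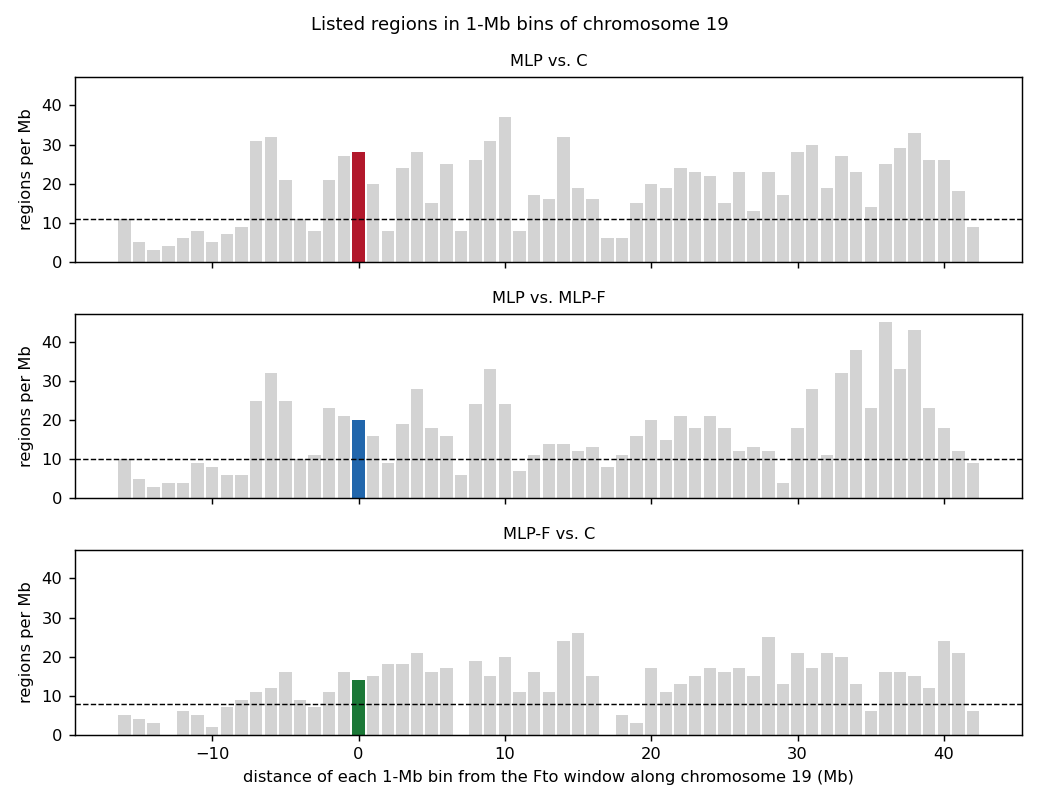
Number of listed regions in each 1-Mb bin of chromosome 19 (vertical axis) against the distance of the bin from the Fto window in Mb, for the 3 lists. Coloured bars are the Fto window (28, 20 and 14 regions), grey bars the other bins, and dashed lines the median over the bins of all placed chromosomes (11, 10 and 8).

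The regions of the window were of common size. Median length was 586.5 bp over the 28 MLP vs. C regions, beside 673.5 bp in the whole list. It was 630 bp over the 20 MLP vs. MLP-F regions, beside 727 bp, and 660 bp over the 14 MLP-F vs. C regions, beside 657 bp. The median score was 75.2 in the window and 81.8 in the whole list for MLP vs. MLP-F, and 85.1 in the window and 69.4 in the whole list for MLP-F vs. C. Scores of at least 100 were held by 5 of the 20 MLP vs. MLP-F regions (25%, interval 11.2 to 46.9%), beside 36.8% of that list. They were held by 5 of the 14 MLP-F vs. C regions (35.7%, interval 16.3 to 61.2%), beside 19.1% of that list. Both intervals include the share of the whole list.

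**Figure D5:**
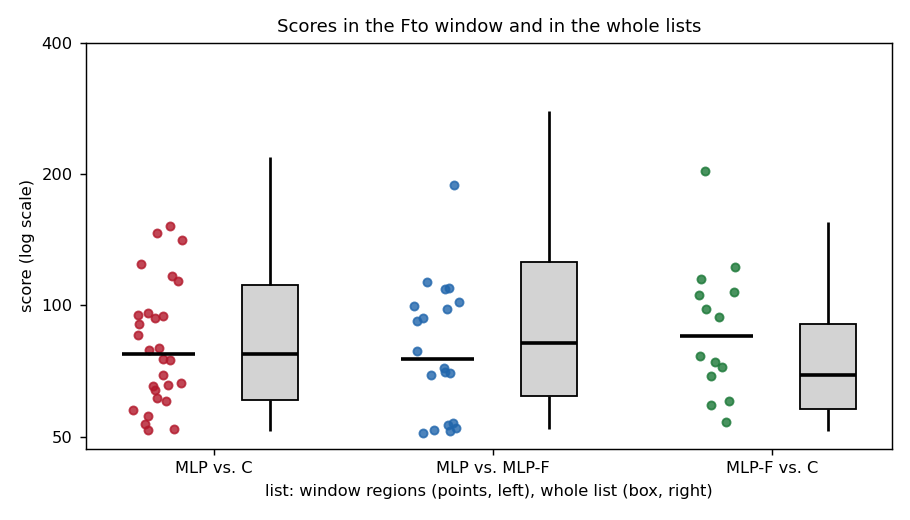
Scores on a log scale of the window regions (points, with the median as a line) and of the whole list (box from the lower to the upper quartile, line at the median, whiskers at 5% and 95%), for each list. Window medians are 77.2, 75.2 and 85.1, and whole-list medians 77.4, 81.8 and 69.4.

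At the lower edge of the window, the outermost MLP vs. C region inside it lies at 16143271 (score 95.1) and the nearest one outside at 16090300 (score 72.1). At the upper edge these are the regions at 17085573 (score 117) and 17156394 (score 129). The Chd9 region, 554.4 kb from the Fto region, is the one at 17156394, which the study placed in an intron of that gene. As with the Fto region, an MLP-F vs. C region lies across it, and the MLP vs. MLP-F list does not hold it. That MLP-F vs. C region scored 60.5, below the median of 69.4 of its whole list. Such an overlap is found for 22.6% of all MLP vs. C regions. Below the window, the study annotated 2 MLP vs. C regions as upstream of Irx5. The one from 15689814 to 15690458 (score 127) overlaps one of the MLP-F vs. C list that scored 90.4, and the one from 15595658 to 15596306 (score 130) is in neither of the other lists. Of 7 genes that neighbour Fto, Irx5 and Chd9 (28.6%) were thus the ones with an annotated region in the study's MLP vs. C or MLP vs. MLP-F table. Among 23154 protein-coding genes, matched by symbol or synonym, the share was 2.91%. Genes of the lists named here were matched by symbol. The 7 genes were chosen with that table known. A region just beyond the window, 595.7 kb above the Fto region (17197596 to 17198435), has MLP scores of 940 against MLP-F and 114 against C, and no score inside the window comes near the larger of these.

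Of 26 other genes of RNA adenosine methylation and the AlkB family, among them Alkbh5, which also demethylates RNA, and Mettl3, the catalytic subunit of the methyltransferase, 0 had an annotated region in these tables, beside 2.91% of all protein-coding genes. Of 41 genes other than Fto at human body mass index loci, 4 were found with one (9.76%), beside the same 2.91%. Ntrk2, also among the 41, was not found with one. The study's list of genes near its MLP vs. C regions does name it, so the count of 4 may be too low. These 4 are Gnpda2, a glucosamine-6-phosphate deaminase, Faim2, an inhibitor of Fas-mediated apoptosis, Nudt3, a diphosphoinositol polyphosphate phosphohydrolase, and Prkd1, a serine/threonine kinase. Nudt3 had an intronic region with MLP scores of 1269 against C and 1170 against MLP-F (chromosome 20, 5829764 to 5830719). Those of Faim2 (129 against C and 203 against MLP-F) and Prkd1 (130 and 56.8) are likewise in both MLP lists. That of Gnpda2, with a score of 125, is in the MLP vs. C list alone. None of the 4 overlaps an MLP-F vs. C region, whereas the Fto region does. In the whole MLP vs. C list, 22.6% of regions overlap an MLP-F vs. C region and 39.4% an MLP vs. MLP-F region. So few regions do not set Fto apart from the 4. The study annotated only regions that it had selected. Both gene lists were chosen with earlier results of these data known, and they were not tested for enrichment.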

How the data were processed

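The authors aligned 76-bp read pairs to rn4 with Bowtie, retained 1 alignment for each pair, and then ran MACS (p cut-off 1e-05, bandwidth 300 bp), taking 1 library as treatment and another as control. The submitters' processing notes name CASAVA and Bowtie. Their versions, and that of MACS, are not stated in the sources used here. Per region, the deposited lists hold its position and its score (the −log10 of the MACS p, multiplied by 10) and no read depth. Only regions higher in the library named first were analysed here.

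Starts were converted to 1-based positions. Overlap means at least 1 bp, and loci are overlapping regions of the 3 lists merged. Chromosome length was taken as the largest end over the lists, and sequence not placed on a chromosome was left out of densities. Wilson intervals are at 95%. Overlap counting was tested on simulated lists. Gene names were taken from the study's annotated tables by position, and gene order from RefSeq (GRCr8), whose symbols and synonyms were matched to those tables for the share of all genes. Named genes are Fto, genes the study annotated in or next to the window, and members of 3 gene lists. The window and the lists were chosen with earlier results of these data known. Alternatives were a score of at least 100, windows of 0.5 and 2 Mb, chromosome 19 as background, a reciprocal overlap of 50% and a distance of 1 kb. Python 3.11.15, numpy 2.4.6, SciPy 1.17.1 and matplotlib 3.10.9 were used.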

Additional observations from a re-analysis of the deposited data

How the results depend on the processing

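Of 30 alternative values for the density, overlap and median score of the window, 27 stayed within 1.5 times the density, the interval of the overlap share or the interval of the median. For density this margin is wide, since ratios of 1.65 and 1.54 can drop almost to the background and still count. At scores of at least 100 the ratio to all placed chromosomes was 1.5 for MLP vs. C, in place of 2.17. It was 1.12 for MLP vs. MLP-F, in place of 1.65. Against chromosome 19 the ratios were 1.51 for MLP vs. C, 1.17 for MLP vs. MLP-F and only 1.07 for MLP-F vs. C. Windows of 0.5 and 2 Mb gave ratios from 1.32 to 2.48. With scores of at least 100, the density of MLP-F vs. C regions was 2.92 times that of all placed chromosomes, in place of 1.54 times, from 5 regions. With scores of at least 100 in both lists, 0% of 6 MLP vs. C regions were shared with the MLP vs. MLP-F list, in place of 32.1%, and 0% of 5 MLP vs. MLP-F regions with the MLP vs. C list, in place of 45.0%. The stricter score leaves few regions, and the Fto region was above it in both lists that hold it. No paired analysis was possible because each group has 1 library, and for the same reason no library could be left out. The read depth at each region was not used here, so a region missing from a list cannot be told from one just under the p cut-off.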
